A study of Homo sapiens with 6 samples.

Results

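The genes of acetylcholine signalling were followed in SH-SY5Y cells, an established human neuroblastoma line of sympathoadrenal type, by RNA sequencing. The group holds 10 of the 60612 genes in the deposited table, chosen by name: the nicotinic receptor subunits CHRNA3, CHRNA5, CHRNB4, CHRNB2 and CHRNA7, the muscarinic receptors CHRM2 and CHRM3, the esterase ACHE, the synthetic enzyme CHAT and the vesicular transporter SLC18A3. All 10 were found in the table. The study compared 3 libraries from cells infected with a vector that the labels give as for overexpression (OE) of CDKN2B-AS1, a long non-coding RNA of the 9p21 locus, and 3 from cells given a control vector that the titles call stuffer. The series title speaks of a mutated CDKN2B-AS1 gene, whereas the labels and the design text give overexpression. No promoter, infection dose or time is given in the labels, and nothing in them tells whether the replicates of a group were grown as independent cultures. The p-values below therefore reflect differences among the sequenced libraries, which can be technical in origin.

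Acetylcholine is made from choline and acetyl-CoA by choline acetyltransferase, loaded into vesicles by the transporter encoded by SLC18A3, and broken down by acetylcholinesterase. It opens nicotinic receptors, which are channels of several subunits arranged as a ring, and activates muscarinic receptors, which signal through G proteins. In sympathetic ganglia the channel built around CHRNA3 and CHRNB4 carries fast transmission, with CHRNA5 as an accessory subunit, and the genes of these subunits lie side by side in a cluster on chromosome 15.

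Depth was recovered from the FPKM and gene lengths, with the most frequent low value taken as 1 fragment. It therefore counts fragments assigned to genes and not all that were sequenced. By this measure it was 27525077, 20466583 and 48996425 fragments in CDKN2B-AS1 OE replicates 1, 2 and 3. In control vector replicates 1, 2 and 3 it was 45102020, 29048596 and 43413832 fragments. Values are FPKM, fragments scaled by the length of the gene model and by the depth of the library. CDKN2B-AS1 itself was measured at 0.338, 0.304 and 0.353 FPKM in the CDKN2B-AS1 OE libraries and at 0.272, 0.288 and 0.191 FPKM in the control vector libraries, so every OE library was above every control library, with a ratio of means of 1.33 (exact two-sided permutation test, p = 0.1, the smallest that 3 against 3 allows). It lay below the filter of 1 FPKM used for testing, and its log2 fold change of 0.15 had a 95% interval of -0.37 to 0.68, so the overexpression named in the labels was not shown by this gene's FPKM beyond the error of the model. The 0.5 FPKM added before taking logs is more than any of these values, so this log2 fold change understates the ratio. FPKM is also divided by a gene model of 20420 bases, so a rise in a short part of it would be diluted. Of the 10 adrenergic neuroblastoma markers, 9 reached 1 FPKM in at least 3 libraries, with DBH at 489 to 671 FPKM and TH at 0 to 0.30 FPKM. On the second principal component control vector replicate 3 stood at 40.57, while the other 5 libraries lay between -17.77 and 4.86. The column names carry the tag LVx2 for all CDKN2B-AS1 OE libraries and LVx1 for all control vector libraries, which no label explains, so what the tags mark cannot be told apart from the group.

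The 10 genes spanned a wide range of levels. Averaged over all 6 libraries, CHRNA3 stood highest at 89.4 FPKM, followed by CHRNB4 at 17.7 FPKM, CHRNB2 at 13.6 FPKM, SLC18A3 at 6.54 FPKM and CHRNA5 at 5.58 FPKM. CHRM3 averaged 1.49 FPKM, ACHE 0.756 FPKM, CHRNA7 0.571 FPKM, CHRM2 0.557 FPKM and CHAT 0.00742 FPKM. The ranges of CHRNB4 and CHRNB2 overlapped, although CHRNB4 was the higher of the pair in 6 of 6 libraries. SLC18A3 and CHRNA5 overlapped as well, with SLC18A3 higher in 4 of 6 libraries, and ACHE, CHRNA7 and CHRM2 could not be ordered beyond their spread. FPKM is divided by the length of all merged exons of a gene, which for CHRNA7 is 21248 bases, or 18.7 times the median of its coding transcripts in GENCODE v29, and for CHRM3 is 15173 bases, or 6.61 times, so the levels of these genes depend on the gene model more than those of SLC18A3, at 0.996 times.

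**Figure D1:**
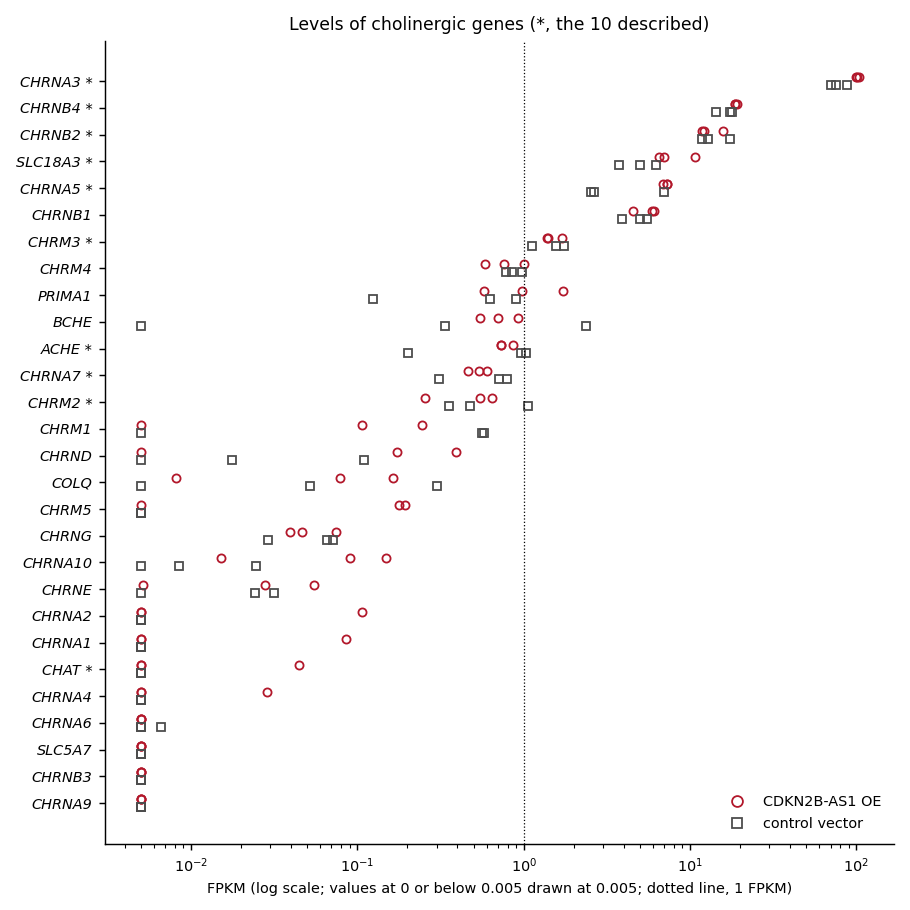
Level of each gene in FPKM on a horizontal log axis, with 1 point for each library and CDKN2B-AS1 OE drawn above control vector. Asterisks mark the 10 genes among other nicotinic, muscarinic and hydrolysis genes and SLC5A7. Values at 0 or below 0.005 FPKM are drawn at 0.005 FPKM. CHRNA3 lies above all other genes, and CHAT was listed above 0 in a single library.

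Among the 13984 genes tested, those with at least 1 FPKM in at least 3 libraries, 159 or 1.14% passed an adjusted p of 0.05 (limma-trend on log2(FPKM + 0.5), Benjamini-Hochberg adjustment over all tested genes), 74 of them higher and 85 lower in CDKN2B-AS1 OE. Of the 10 cholinergic genes 6 were tested and 0 passed. An unadjusted p under 0.05 was found in 3 of the 6, CHRNA3, CHRNA5 and SLC18A3, beside 17.7% of all tested genes. The 4 genes below the filter were CHRNA7, CHRM2, ACHE and CHAT. The median log2 fold change over the 6 tested genes was 0.28, beside a median of 0.05 over all tested genes. Of the 6, 5 were above 0, beside 7948 of all 13984 tested genes. In 3 of the 6, CHRNA3, CHRNB4 and SLC18A3, every CDKN2B-AS1 OE library was above every control vector library, as in 14.2% of all tested genes, and in 0 of the 6 was every OE library below every control library, as in 9.9%. In bulk RNA, fewer cells that express a gene and less of its RNA per cell cannot be told apart.

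CHRNA3 (ENSG00000080644) encodes the alpha subunit of the ganglionic channel and lies on the minus strand at chr15:78593052-78621295 (GRCh38). It had 101, 99.0 and 103 FPKM in CDKN2B-AS1 OE replicates 1, 2 and 3, against 70.0, 75.3 and 88.3 FPKM in control vector replicates 1, 2 and 3. All OE libraries lay above all control libraries, and the OE libraries spread less. The means were 101 ± 2.03 FPKM in CDKN2B-AS1 OE and 77.9 ± 9.40 FPKM in control vector (SD, n = 3 each). The log2 fold change was 0.38 with an SE of 0.11, a 1.3-fold higher level with a 95% interval of 1.1 to 1.54, and did not pass the adjusted test (limma-trend, adjusted p = 0.128). Between 9649 and 24040 fragments per library stand behind these values. Among tested genes of a library, CHRNA3 stood at percentile 95.67, 95.62 and 96.15 in CDKN2B-AS1 OE and 93.56, 93.83 and 94.99 in control vector.

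CHRNB4 (ENSG00000117971) encodes the beta subunit that partners CHRNA3 and lies on the same strand at chr15:78624111-78727754. It had 18.6, 19.1 and 18.7 FPKM in the CDKN2B-AS1 OE libraries, against 14.4, 18.0 and 17.5 FPKM in the control vector libraries. The groups did not overlap, but the gap was small and control vector replicate 1 was the library that stood low. The log2 fold change was 0.18 with an SE of 0.13 and a 95% interval of -0.11 to 0.47 (limma-trend, adjusted p = 0.513). Per length, CHRNA3 was 5.4, 5.2 and 5.5 times the level of CHRNB4 in CDKN2B-AS1 OE and 4.9, 4.2 and 5.1 times in control vector.

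The 250 bases before the RefSeq starts of these genes are shown since both lie in the cluster and since the GC box, GGGCGG or CCGCCC on the other strand, is the site bound by the SP1 family, which is known to act at this cluster. Capitals mark GC boxes, each sequence runs 5′ to 3′ on the strand of its gene, and positions are chr15:78620997-78621246 for CHRNA3 and chr15:78641211-78641460 for CHRNB4 (RefSeq, GRCh38.p14, both minus strand).
CHRNA3: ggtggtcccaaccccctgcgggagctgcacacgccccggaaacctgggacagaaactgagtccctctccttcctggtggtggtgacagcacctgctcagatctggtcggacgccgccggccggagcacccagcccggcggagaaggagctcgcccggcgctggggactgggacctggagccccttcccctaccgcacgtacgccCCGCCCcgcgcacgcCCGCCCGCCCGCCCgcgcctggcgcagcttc
CHRNB4: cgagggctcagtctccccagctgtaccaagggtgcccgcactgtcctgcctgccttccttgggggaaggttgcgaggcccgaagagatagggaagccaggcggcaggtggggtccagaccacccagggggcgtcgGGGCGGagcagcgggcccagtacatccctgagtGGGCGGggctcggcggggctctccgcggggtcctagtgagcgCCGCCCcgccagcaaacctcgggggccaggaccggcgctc
The CHRNA3 window holds 4 GC boxes, 3 of which overlap each other, and the CHRNB4 window holds 3. Among the other genes with windows, CHRNA7 has 6 in each of its 2, ACHE has 5, 0 and 1 in its 3, CHRM2 has 1, 1 and 2, CHAT has 2, 2 and 0, and CHRNB2 and CHRM3 have 0. Over 35116 such windows of 250 bases in the RefSeq table, 42.6% hold at least 1 GC box. At least 3 are held by 13.9% and at least 4 by 7.63%, with overlapping matches counted. These windows were not matched for base composition, and G and C made up 73.6% of the CHRNA3 window and 72.4% of the CHRNB4 window. The part of base composition in the GC box counts was not tested. In the deposited gene models both cluster windows lie inside their gene. The CHRNA3 window falls within exon bases 78620713 to 78621295. The CHRNB4 window overlaps an exon at 78641079 to 78641245, in a model that runs on to 78727754. A match of letters does not show binding. Windows were matched for 9 of the 10 genes and not for CHRNA5.

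CHRNA5 (ENSG00000169684) encodes the accessory alpha subunit and lies on the plus strand at chr15:78565520-78595269. It had 6.84, 7.24 and 7.25 FPKM in the CDKN2B-AS1 OE libraries, against 2.54, 2.65 and 6.95 FPKM in the control vector libraries. Control vector replicate 3 lay above CDKN2B-AS1 OE replicate 1, so the groups overlapped, while the other control libraries were far lower. The means were 7.11 ± 0.233 FPKM in CDKN2B-AS1 OE and 4.04 ± 2.51 FPKM in control vector (SD, n = 3 each), and the log2 fold change was 0.88 with an SE of 0.31 and a 95% interval of 0.18 to 1.58 (limma-trend, adjusted p = 0.194). Without control vector replicate 3 the log2 fold change was 1.3 with an SE of 0.18 and passed the test (limma-trend, adjusted p = 0.0236). Over all 14 alternative settings its adjusted p lay between 0.0236 and 0.50.

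The cluster genes share exon sequence on opposite strands, and the sources used here do not give whether the authors' counting separated strands. CHRNA5 shares 832 exon bases, or 23.0% of its exons, with the long non-coding RNA RP11-650L12.2, and 198 bases, or 5.47%, with CHRNA3, for which they are 4.16%. RP11-650L12.2 had 7.11, 7.80 and 6.06 FPKM in CDKN2B-AS1 OE, against 2.66, 3.37 and 4.64 FPKM in control vector, with every OE library above every control library. Its log2 fold change was 0.91 with an SE of 0.21 (limma-trend, adjusted p = 0.0792), and it passed only without control vector replicate 3, at 1.09 (limma-trend, adjusted p = 0.0448). Fragments of the shared bases cannot be assigned to CHRNA5, to this RNA or to CHRNA3 from the table. The part of any of these genes in the value of another was not tested. CHRNA3 averaged 89.4 FPKM over all 6 libraries, against 5.58 FPKM for CHRNA5. A small share of bases therefore need not be a small share of CHRNA5 fragments. The ratio of CHRNA5 to RP11-650L12.2 was 0.96, 0.93 and 1.2 in CDKN2B-AS1 OE and 0.95, 0.79 and 1.5 in control vector.

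**Figure D2:**
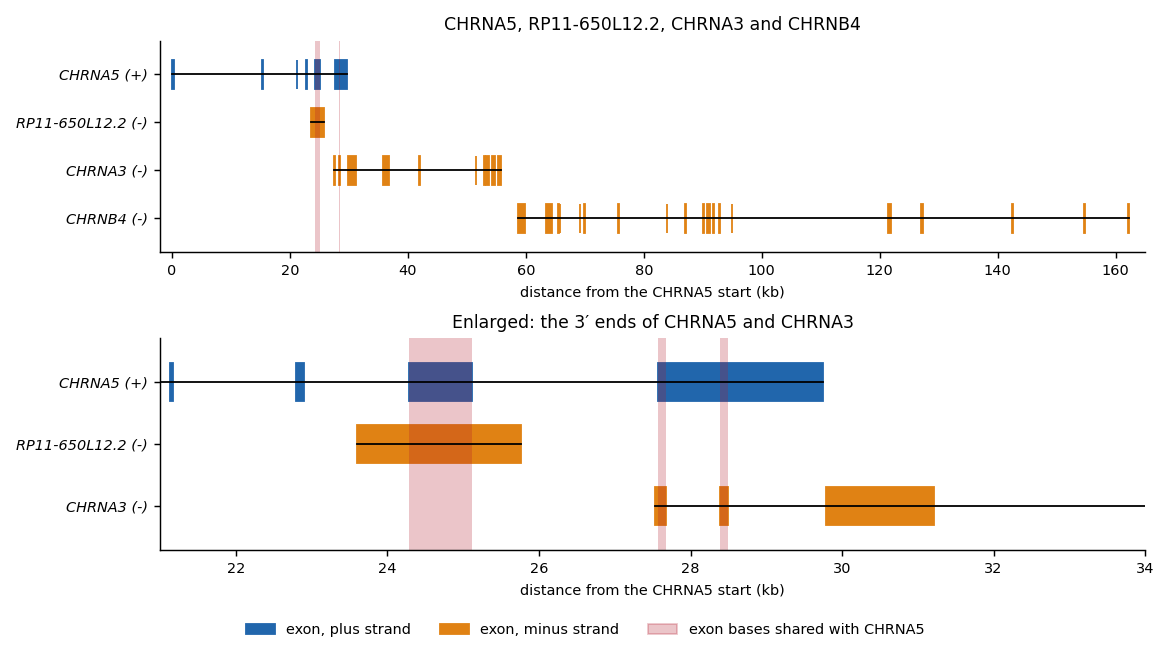
Gene models of CHRNA5, RP11-650L12.2, CHRNA3 and CHRNB4 to scale by distance from the CHRNA5 start in kilobases, with boxes as exons coloured by strand and the lower panel enlarging the end of CHRNA5. Shading marks the exon bases shared with CHRNA5, 832 with RP11-650L12.2 and 198 with CHRNA3.

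CHRNB2 (ENSG00000160716), the beta subunit of the main brain receptor with CHRNA4, had 15.9, 11.8 and 12.1 FPKM in CDKN2B-AS1 OE, against 11.8, 17.3 and 12.9 FPKM in control vector (chr1:154567778-154580013). The groups overlapped throughout, with a log2 fold change of -0.07, an SE of 0.18 and a 95% interval of -0.47 to 0.33 (limma-trend, adjusted p = 0.883). Its direction changed sign in 3 of 14 alternatives, the scaling to a common total and the fits without CDKN2B-AS1 OE replicate 2 or control vector replicate 2. CHRNB2 shares 321 exon bases, 5.46% of its own, with RP11-61L14.6 on the opposite strand.

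CHRNA7 (ENSG00000175344), which forms channels of a single subunit kind, lay at chr15:31923438-32173018 with 0.604, 0.466 and 0.542 FPKM in CDKN2B-AS1 OE, against 0.716, 0.791 and 0.308 FPKM in control vector. It was below the filter and had a log2 fold change of -0.06 with a 95% interval of -0.66 to 0.53 (exact two-sided permutation test of FPKM, p = 0.7). The sign turned without control vector replicate 1 or 2. Of its 6082 windows of 100 bases in GENCODE v29, 78.0% also occur in CHRFAM7A, the partial duplicate that joins part of CHRNA7 to another gene. The levels of both are therefore uncertain. CHRFAM7A had 1.46, 1.23 and 1.47 FPKM in CDKN2B-AS1 OE, against 1.67, 2.07 and 1.13 FPKM in control vector (limma-trend, adjusted p = 0.804).

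**Figure D3:**
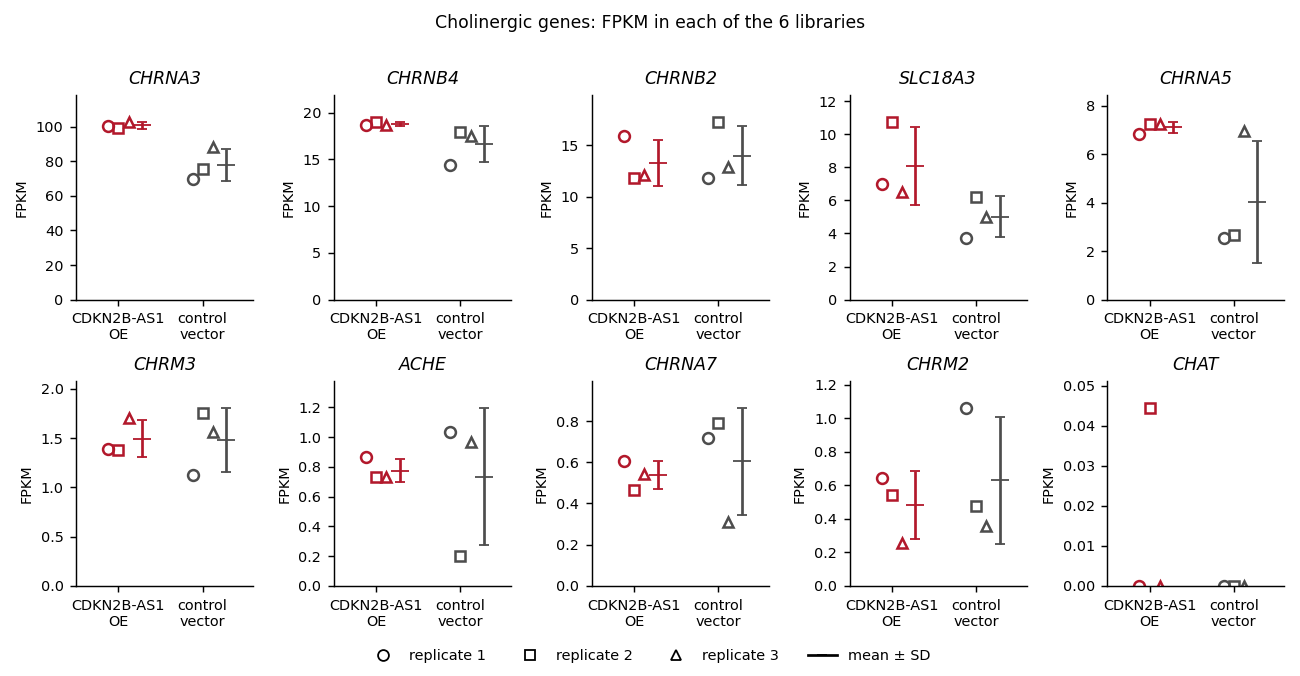
FPKM of each of the 10 genes by library on linear axes, CDKN2B-AS1 OE left of control vector, with points as libraries and the bars beside them as mean and SD of 3 libraries, drawn for all genes but CHAT. The groups are apart for CHRNA3, CHRNB4 and SLC18A3, and control vector replicate 3 stands with the OE libraries for CHRNA5.

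Summed over the 5 nicotinic genes, the level was 143, 138 and 142 FPKM in CDKN2B-AS1 OE and 99.5, 114 and 126 FPKM in control vector. CHRNA3 supplied 70.6%, 72.0% and 72.8% of the sum in CDKN2B-AS1 OE and 70.3%, 66.0% and 70.1% in control vector. CHRNA5 supplied 4.80%, 5.26% and 5.12% in CDKN2B-AS1 OE and 2.55%, 2.32% and 5.52% in control vector. The 3 genes of the chromosome 15 cluster together made up 84.1% to 91.1% of the sum over all 6 libraries. CHRNA3 was 14.7, 13.7 and 14.2 times CHRNA5 in CDKN2B-AS1 OE and 27.6, 28.4 and 12.7 times in control vector. These are shares of RNA per length and say nothing of the subunits assembled in receptors.

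**Figure D4:**
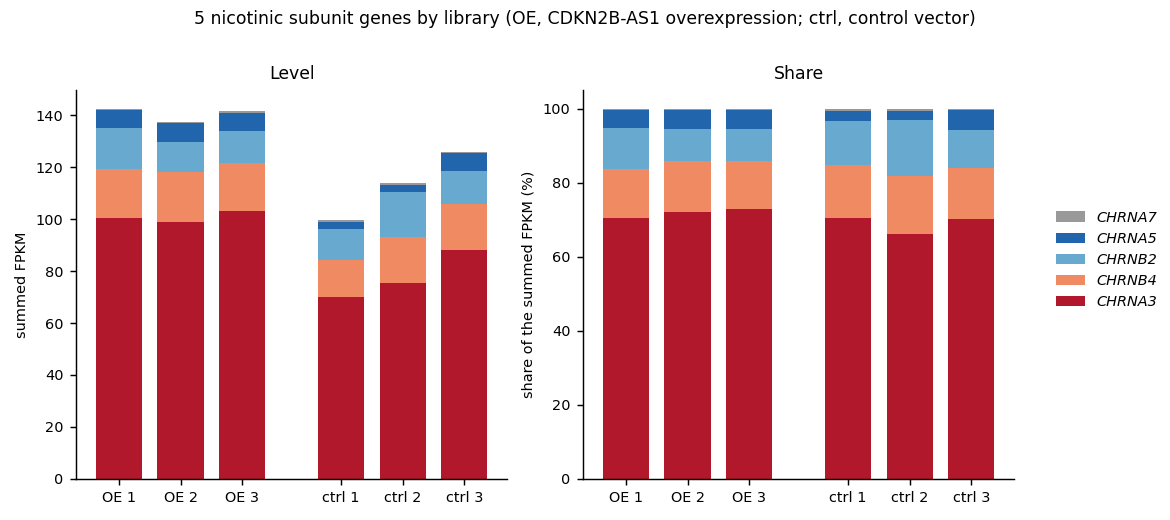
Summed FPKM of CHRNA3, CHRNB4, CHRNB2, CHRNA5 and CHRNA7 in each library as stacked bars from 0, CDKN2B-AS1 OE left of control vector. CHRNA3 makes up the largest layer in all 6 bars, and the CDKN2B-AS1 OE bars reach 138 to 143 FPKM against 99.5 to 126 FPKM in control vector.

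Of the muscarinic receptors, CHRM3 (ENSG00000133019), which couples to Gq, had 1.39, 1.38 and 1.71 FPKM in CDKN2B-AS1 OE, against 1.13, 1.76 and 1.57 FPKM in control vector (chr1:239386565-239915452). The groups overlapped, with a log2 fold change of 0.02 and a 95% interval of -0.52 to 0.55 (limma-trend, adjusted p = 0.982). Its sign turned under median-of-ratios scaling and without CDKN2B-AS1 OE replicate 3 or control vector replicate 1. CHRM2 (ENSG00000181072), which couples to Gi and slows the heart in the periphery, was below the filter (chr7:136868652-137020255). It had 0.645, 0.545 and 0.257 FPKM in CDKN2B-AS1 OE, against 1.06, 0.475 and 0.356 FPKM in control vector. With 93 to 400 fragments per library and a 95% interval of its log2 fold change of -0.86 to 0.51, no difference was detectable for CHRM2 at this depth and spread (exact two-sided permutation test of FPKM, p = 0.7). The sign of that fold change turned without CDKN2B-AS1 OE replicate 3 or control vector replicate 1.

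SLC18A3 (ENSG00000187714), the vesicular acetylcholine transporter, was the transmitter gene with the highest level (chr10:49610310-49612720, plus strand). It had 6.99, 10.8 and 6.48 FPKM in CDKN2B-AS1 OE, against 3.75, 6.23 and 5.01 FPKM in control vector. Every OE library was above every control library, although CDKN2B-AS1 OE replicate 3 and control vector replicate 2 lay close together, and CDKN2B-AS1 OE replicate 2 stood high. The means were 8.08 ± 2.34 FPKM in CDKN2B-AS1 OE and 4.99 ± 1.24 FPKM in control vector (SD, n = 3 each), with a log2 fold change of 0.63, an SE of 0.24 and a 95% interval of 0.11 to 1.16 (limma-trend, adjusted p = 0.207). Its 250 bases before the RefSeq start, chr10:49610060-49610309 on the plus strand, are shown since it is the third gene whose groups did not overlap, with GC boxes in capitals.
SLC18A3: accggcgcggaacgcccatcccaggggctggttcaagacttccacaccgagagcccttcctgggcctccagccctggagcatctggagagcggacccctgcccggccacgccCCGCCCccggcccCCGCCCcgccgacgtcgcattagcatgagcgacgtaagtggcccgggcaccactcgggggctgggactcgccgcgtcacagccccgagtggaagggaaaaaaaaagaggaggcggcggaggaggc
The SLC18A3 window holds 2 GC boxes, and G and C make up 70.8% of it. SLC18A3 lies within the span of CHAT at chr10:49609095-49667942, the arrangement known as the cholinergic locus, and the genes share 0 exon bases in the table.

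CHAT (ENSG00000070748), which makes acetylcholine, was listed at 0 in 5 libraries and at 0.0445 FPKM, or 6 fragments, in CDKN2B-AS1 OE replicate 2. A count of 0 allows up to 3 fragments, which is 0.00929 to 0.0165 FPKM for this gene in those 5 libraries, for counting error only. ACHE (ENSG00000087085), the esterase of the synapse, had 0.865, 0.732 and 0.731 FPKM in CDKN2B-AS1 OE, against 1.03, 0.203 and 0.97 FPKM in control vector (chr7:100889994-100896974). Control vector replicate 2 was the low library, at 24 fragments, and the other control libraries lay above all OE libraries (exact two-sided permutation test, p = 1.0). The log2 fold change of ACHE was 0.13 with a 95% interval of -0.60 to 0.86, and it was -0.24 without control vector replicate 2.

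**Figure D5:**
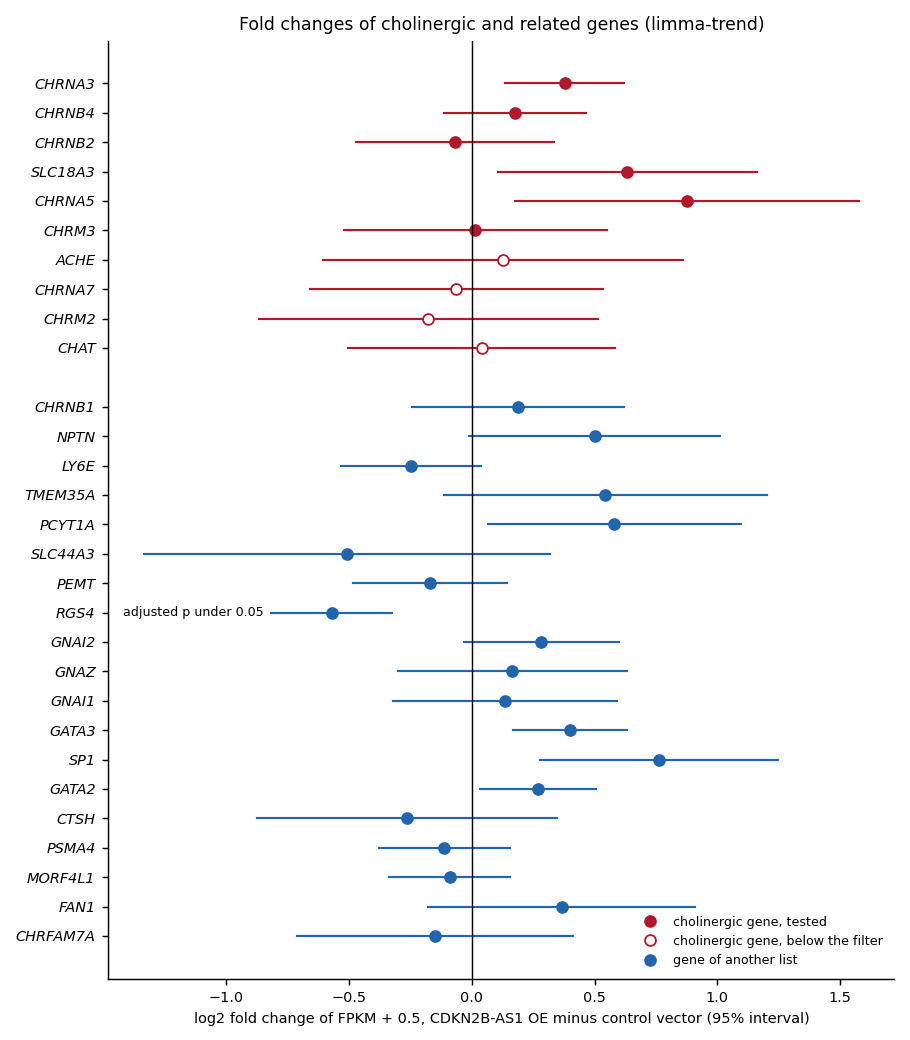
Log2 fold change of each of the 10 genes and of the named pathway genes, CDKN2B-AS1 OE over control vector, with points as estimates and lines as 95% intervals from limma-trend. RGS4 at -0.57 is the only one marked as past an adjusted p of 0.05.

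Outside the 10 genes, the nicotinic family was represented by CHRNB1, the beta subunit of the muscle receptor. Of 11 other nicotinic subunits it was the single tested one, with 5.53 ± 0.831 FPKM in CDKN2B-AS1 OE and 4.80 ± 0.834 FPKM in control vector (SD, n = 3 each), and it did not pass (limma-trend, adjusted p = 0.655). CHRNA9 and CHRNB3 were listed at 0 in all libraries. Of the other muscarinic genes CHRM1, CHRM4 and CHRM5, 0 of 3 were tested, and CHRM4 was highest at 0.586 to 1.00 FPKM. Of 16 genes for receptor assembly and regulation 7 were tested and 0 passed. Among them TMEM35A, the receptor chaperone NACHO, had a log2 fold change of 0.54 and LY6E, a Ly6 protein, of -0.25, with 8.15 ± 1.41 and 21.8 ± 1.92 FPKM in CDKN2B-AS1 OE and 5.75 ± 2.39 and 26.0 ± 2.66 FPKM in control vector (SD, n = 3 each). Control vector replicate 3 was low for TMEM35A, at 2.99 FPKM, and without it the log2 fold change was 0.17.

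Of 15 genes of choline uptake and metabolism 12 were tested and 0 passed. PCYT1A, which makes CDP-choline for phosphatidylcholine, had 4.19, 4.56 and 3.29 FPKM in CDKN2B-AS1 OE, against 1.83, 2.61 and 3.20 FPKM in control vector, with no overlap (log2 fold change 0.58, limma-trend, adjusted p = 0.234). The high-affinity choline transporter SLC5A7 was listed at 0 in all libraries. Of the hydrolysis and anchor genes BCHE, PRIMA1 and COLQ, 0 of 3 were tested.

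Downstream of the muscarinic receptors, 12 of 23 genes of the Gq list were tested and 1 passed, in the lower direction, in which 0.608% of all tested genes passed. It was RGS4, a GTPase activator that shortens Gq and Gi signals, with 60.1, 53.6 and 66.7 FPKM in CDKN2B-AS1 OE, against 86.2, 86.8 and 94.7 FPKM in control vector. All OE libraries were below all control libraries, and RGS4 fell by 0.57 on the log2 scale with an SE of 0.11 (limma-trend, adjusted p = 0.0451). The call was lost in 9 of 14 alternatives, among them the fit without any 1 of the 6 libraries, where the adjusted p reached 0.162. On the Gi list 6 of 13 genes were tested and 0 passed, with GNAI2, a Gi alpha subunit, at a log2 fold change of 0.28.

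Among 18 transcription factors of cholinergic and autonomic neurons, 10 were tested and 0 passed. In 4 of 10, GATA3, SP1, GATA2 and REST, every CDKN2B-AS1 OE library was above every control library, as in 14.2% of all tested genes. GATA3, a factor of sympathetic neurons, had 97.9, 111 and 95.9 FPKM in CDKN2B-AS1 OE, against 73.1, 73.8 and 83.1 FPKM in control vector (log2 fold change 0.40, limma-trend, adjusted p = 0.101). It passed when each library was scaled to a common total, at 0.51 (limma-trend, adjusted p = 0.0450). SP1, which binds the GC box, had 6.05, 6.01 and 5.35 FPKM in CDKN2B-AS1 OE, against 3.03, 2.44 and 4.44 FPKM in control vector. Its groups did not overlap (log2 fold change 0.76, limma-trend, adjusted p = 0.126). SP3, also on the list, had 2.61, 2.11 and 2.58 FPKM in CDKN2B-AS1 OE, against 2.31, 1.54 and 2.90 FPKM in control vector. The groups of SP3 overlapped (log2 fold change 0.12, limma-trend, adjusted p = 0.841). A part of SP1 or SP3 in the levels of the 10 genes was not tested.

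Of 6 other genes beside the cluster on chromosome 15, 5 were tested and 0 passed. Their median log2 fold change was -0.11 and 1 of 5 was above 0, beside 7948 of all 13984 tested genes. The proteasome subunit PSMA4, next to CHRNA5, had 47.8 ± 4.31 FPKM in CDKN2B-AS1 OE and 51.8 ± 5.19 FPKM in control vector (SD, n = 3 each).

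Profiles across the 6 libraries were compared by the root mean squared difference between mean-centred log2(FPKM + 0.5) values, a description over 6 libraries. Nearest to CHRNA5 was SORT1, at 0.0941, with 3.47, 3.52 and 3.32 FPKM in CDKN2B-AS1 OE and 1.23, 1.27 and 3.05 FPKM in control vector, then DNM3OS at 0.0966. The size of CHRNA5's own deviation by this measure was 0.610. Both share the high value of control vector replicate 3. Nearest to CHRNA3, whose own deviation was 0.214, were RRP15 at 0.0402 and HSD17B4 at 0.0450, and nearest to CHRNB4, with 0.132, was SLC25A15 at 0.0284. For SLC18A3, with 0.428, the nearest were MTND5P11 at 0.118 and MTCO1P40 at 0.122, both named as mitochondrial pseudogenes.

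Markers of other cell types were summed in each library. Fibroblast markers summed to 53.4 to 62.6 FPKM in CDKN2B-AS1 OE and 51.6 to 65.0 FPKM in control vector, and Schwann and glial markers to 3.35 to 3.67 FPKM in CDKN2B-AS1 OE and 3.33 to 6.93 FPKM in control vector. Of the 8 fibroblast markers 6 reached 1 FPKM in at least 3 libraries, while COL1A1 and COL1A2 lay below the filter. A sum does not show that cells of a type were present. Immune, epithelial and skeletal muscle markers each summed to under 2 FPKM in every library, and PTPRC, CD3E, KRT5, KRT14 and CKM were among those listed at 0 throughout.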

How the data were processed

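RNA of 6 SH-SY5Y samples was made into libraries with a SMART-seq HT kit and read as paired ends, per the labels' protocols. Builds GRCh38.p13 and hg38 and the tools featureCounts 2.0.1 and STAR 2.7.9 are listed, without options, per the submitters' processing notes. Expression values are FPKM that the authors deposited for each gene with its model, per the file headers, and 0 of its per-sample columns were left unused. FPKM multiplied back by length and depth gave multiples of 0.01 fragments (tolerance 0.001), so the values are fractional fragments and no count model was the main test.

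Genes of at least 1 FPKM in at least 3 of 6 libraries entered a moderated linear model (limma-trend) of log2(FPKM + 0.5) without covariates (R 4.3.3, package version limma 3.58.1) and Benjamini-Hochberg adjustment over 13984 genes at 0.05. Fold changes are on that scale and understate changes of low genes. Cholinergic genes below the filter were fitted beside the tested genes and not called. Single values had an exact two-sided permutation test. Libraries were grouped by title. The alternatives were other pseudocounts, no filter, other scalings, a replicate block, limma-voom on recovered fragments, no trend, and each library left out. On simulated data for 13984 genes it made 166 calls, 6 of them false, and found 16 of 50 planted changes of 1.5-fold, 44 of 50 of 2-fold, 50 of 50 of 3-fold and 50 of 50 of 4-fold. Changes were planted only in genes of higher level, with independent noise and no outlying library. Recovery for tested genes as low as CHRM3 was not tested.

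All 10 cholinergic genes were named, and from each other list the genes that passed or up to 3 of smallest p, of which some are given. Genes overlapping a named gene, the nearest profiles, SP3 and REST were named besides. The genes and lists were chosen with earlier results of these data known. Sequences are from RefSeq. A single gene of the marker lists is not reported here.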

Additional observations from a re-analysis of the deposited data

How the results depend on the processing

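Of 139 fold changes of the 10 genes under the alternatives, 128 had the same sign as in the reported fit and 11 the other sign, spread over 5 genes, and 1 value crossed the threshold, that of CHRNA5. The number of called genes, 159, became 0 without a filter on low values, where 3538 had an unadjusted p under 0.05, and to 0 without a mean-variance trend, where 2304 did (limma), and lay between 0 and 139 with each library left out. The cause was not tested. Without control vector replicate 3, 139 genes passed, CHRNA5 among them, and without each other library 0 to 3. The number of the 10 genes called lay between 0 and 1 with each library left out. Scaling to a common total gave a median of all tested genes of 0.15 on the log2 scale, beside 0.05 without it, with 181 genes higher and 52 lower, and median-of-ratios factors gave -0.0037, with 55 higher and 132 lower. Under the common total CHRNB2 had a log2 fold change of 0.040 and an FPKM difference of 0.357, and MORF4L1, a cluster neighbour, a log2 fold change of 0.021. Under median-of-ratios factors CHRM3 had a log2 fold change of -0.032 and an FPKM difference of -0.0551. With each library left out, CHRNB2 ranged from -0.20 to 0.090, CHRM3 from -0.12 to 0.12, CHRNA7 from -0.27 to 0.064, CHRM2 from -0.35 to 0.083, ACHE from -0.24 to 0.33 and CHRFAM7A from -0.33 to 0.0016, and each changed sign in some. CHRNA3 ranged from 0.31 to 0.47, CHRNB4 from 0.08 to 0.24 and SLC18A3 from 0.42 to 0.79. CHAT gave no alternative value without CDKN2B-AS1 OE replicate 2. Correlations of same-numbered deviations between the groups were -0.0235, 0.105 and 0.119, and those of differently numbered ones lay between -0.182 and 0.102. A pairing by replicate number was thus neither shown nor excluded. The replicate block gave 229 calls, beside 159 in the reported fit, none of the 229 among the 10 genes. CHRM2, ACHE and CHAT rest on few fragments.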
